A study of Drosophila melanogaster
Gallus gallus with 8 samples.

Results

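The regions described here are the broad DRIP peaks on chromosomes 11 to 15 of the chicken genome (build Galgal5), the larger of the microchromosomes. All rows of these 5 chromosomes were taken from the list of each genotype, which gave 2488 of the 48468 peaks in *primpol* and 2304 of the 41445 peaks in wild type. DNA:RNA immunoprecipitation with S9.6, an antibody against DNA:RNA hybrids, was followed by sequencing (DRIP-seq) in DT40, a line of chicken B cells. *primpol* cells lack PrimPol, a primase-polymerase that restarts DNA synthesis beyond an obstacle in the template, and wild type cells retain it. All samples were spiked with *Drosophila* S2 cells before extraction, and each genotype had 2 DRIP libraries, 1 input library and 1 DRIP library treated with RNase H, which degrades the RNA of hybrids. The labels assign both DRIP libraries of a genotype to 1 list, so there was no replicate error, no test between genotypes was possible, and the intervals given cover counting error only.

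An R-loop forms when a nascent transcript pairs with its template DNA and displaces the other strand. R-loops are known at promoters and at the ends of genes, and GC skew favours them. The chicken karyotype is made up of a few macrochromosomes and many microchromosomes, which are known to be GC-rich and dense in genes. Fragments were cut with restriction enzymes before immunoprecipitation, which limits how finely a peak can be placed. The genotypes differed little in DRIP depth, with 44735404 tags kept in *primpol* and 46425192 in wild type, but the *primpol* input was 1.31 times as deep (30302032 tags in *primpol* and 23107894 in wild type). Peak heights, which are mean fragment pileups, were on the scale of each genotype's own input and carried no spike-in scale.

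How many regions each chromosome held in the 2 genotypes was asked first. Chromosome 11 held 687 peaks in *primpol* and 573 in wild type, a ratio of 1.199 (95% interval of 1.07 to 1.34). Chromosome 12 held 587 peaks in *primpol* and 538 in wild type (ratio 1.09), and chromosome 13 held 467 in *primpol* and 446 in wild type (ratio 1.05). Chromosome 14 held 397 peaks in *primpol* and 390 in wild type (ratio 1.02). On chromosome 15 the order turned, with 350 peaks in *primpol* and 357 in wild type (ratio 0.98). The ratio was thus smaller on each shorter chromosome, and only on chromosome 11 did its interval exclude 1.

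Pooled, the ratio was 1.08 (1.02 to 1.14), and without chromosome 11 it was 1.04 with an interval that included 1 (0.974 to 1.11). The pooled ratio lay between the 1.13 of chromosomes 6 to 10 and the 0.795 of chromosomes 16 to 33. Among chromosomes 1 to 10 the ratio was never below the 1.06 of chromosome 10. As a share of the list, the 5 chromosomes held 5.13% of *primpol* peaks (4.94 to 5.33%) and 5.56% of wild type peaks (5.34 to 5.78%), and the ratio of these shares was 0.923 (0.874 to 0.976). The share was therefore lower in *primpol*, although more peaks were called. The *primpol* list can be scaled to the wild type input depth, which removes *primpol* peaks only and so can only lower the ratio of peak numbers. At that depth the ratio was 0.621 (1432 peaks in *primpol* and 2304 in wild type), and over the whole lists it was 0.723. When each list was cut to its 20000 best by −log10 q, the ratio on the 5 chromosomes was 0.858, from 888 peaks in *primpol* and 1035 in wild type. Lists of equal length make this a ratio of list shares, to be set against the 0.923 of the full lists.

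Peak density was highest on chromosome 11 in both genotypes. Chromosome 11 carried 34.0 peaks per Mb in *primpol* and 28.3 in wild type, and chromosome 12 carried 29.5 in *primpol* and 27.1 in wild type. Chromosome 13 was the sparsest in both genotypes, at 25.4 peaks per Mb in *primpol* and 24.3 in wild type. Chromosome 14 had 25.5 in *primpol* and 25.03 in wild type, and chromosome 15 had 27.5 in *primpol* and 28.02 in wild type. The span of a chromosome was taken to the last peak end in either list, from 20.2 Mb for chromosome 11 to 12.7 Mb for chromosome 15.

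Pooled density was 28.7 peaks per Mb in *primpol* and 26.6 in wild type. It was lower than on chromosomes 6 to 10, which had 35.9 peaks per Mb in *primpol* and 31.8 in wild type. It was higher than on chromosomes 16 to 33, where the order of genotypes was the opposite, with 18.5 in *primpol* and 23.3 in wild type. Peaks covered 3.60% of the 5 chromosomes in *primpol* and 3.23% in wild type, and on chromosome 11 alone 4.59% in *primpol* and 3.77% in wild type. On chromosomes 13 to 15 the covered shares lay between 2.99 and 3.13% in *primpol* and between 2.85 and 3.17% in wild type, so that the genotypes differed mainly on chromosomes 11 and 12.

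**Figure D1:**
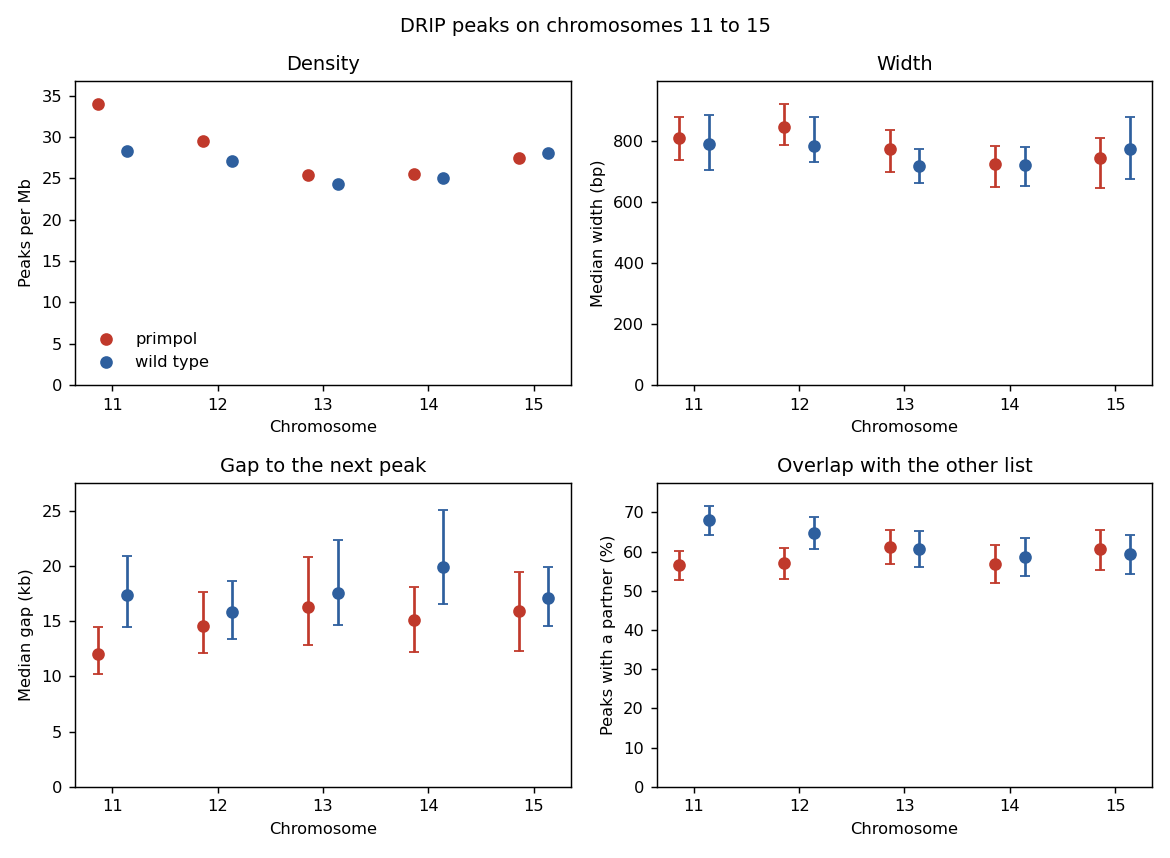
Peak density (peaks per Mb), median peak width (bp), median gap to the next peak (kb) and percent of peaks with a partner in the other list, for chromosomes 11 to 15, with *primpol* in red to the left of wild type in blue. Bars are 95% intervals, from order statistics for medians and by the Wilson method for shares, and the density points have none. Density was higher in *primpol* by 34.0 against 28.3 peaks per Mb on chromosome 11 and the points drew together towards chromosome 15.

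The next comparison asked how wide the peaks were. The median width was 807 bp in *primpol* and 788 bp in wild type on chromosome 11, and 846 bp in *primpol* and 782.5 bp in wild type on chromosome 12. It was 773 bp in *primpol* and 718 bp in wild type on chromosome 13. On chromosome 14 the medians were 723 bp in *primpol* and 718.5 bp in wild type, and on chromosome 15 the *primpol* median was the lower one, at 743 bp in *primpol* and 774 bp in wild type. The intervals of the genotypes overlapped on each chromosome, as they did over all 5, where the median was 778 bp (752 to 811) in *primpol* and 749 bp (723 to 784) in wild type. Chromosomes 6 to 10 had wider medians, at 799 bp in *primpol* and 773 bp in wild type, and chromosomes 16 to 33 had narrower ones, at 697 bp in *primpol* and 677.5 bp in wild type.

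Wide peaks were few but held much of the covered sequence. Peaks of at least 2 kb made up 17.8% of *primpol* peaks and 17.1% of wild type peaks, and held 50.3% of covered bases in *primpol* and 49.4% in wild type. Over the whole lists such peaks made up 20.2% in *primpol* and 18.5% in wild type, and held 54.2% of covered bases in *primpol* and 51.8% in wild type. Peaks of at least 5 kb numbered 68 in *primpol* (2.73%) and 55 in wild type (2.39%), against 3.12% of the whole *primpol* list and 2.78% of that of wild type. Of these wide peaks 24 in *primpol* and 21 in wild type were on chromosome 11. The widest peak on the 5 chromosomes was the same region in both genotypes, chr11:9803436-9821834 in *primpol* (18399 bp) and chr11:9803434-9821783 in wild type (18350 bp). Its ends were nearly the same in both lists, and its height was 23.03 in *primpol* and 17.4 in wild type. On chromosome 12 the widest peaks matched likewise, chr12:3669169-3677465 in *primpol* (8297 bp) and chr12:3669280-3677542 in wild type (8263 bp).

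Chromosomes 13 to 15 were less alike at their widest peaks. On chromosome 13 the widest peak spanned 8091 bp in *primpol* (chr13:5058409-5066499) and its partner 6751 bp in wild type (chr13:5058797-5065547). On chromosome 14 the widest *primpol* peak (chr14:145859-154604, 8746 bp) had a wild type partner of 7198 bp. The widest wild type peak there was another region (chr14:1989657-1997876, 8220 bp), which spanned 8492 bp in *primpol*. On chromosome 15 the widest *primpol* peak (chr15:3304620-3313687, 9068 bp) covered 2 wild type peaks with a summed width of 6194 bp, and the widest wild type peak (chr15:2825087-2833104, 8018 bp) had a *primpol* partner of 8170 bp.

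Spacing was measured as the gap between the end of a peak and the start of the next. The median gap on chromosome 11 was 12.1 kb (10.3 to 14.5) in *primpol* and 17.3 kb (14.4 to 21.0) in wild type, and these intervals overlapped only at their edges. On chromosome 14 it was 15.1 kb (12.2 to 18.1) in *primpol* and 19.9 kb (16.5 to 25.1) in wild type. The other chromosomes differed less, with 14.6 kb in *primpol* and 15.8 kb in wild type on chromosome 12, 16.3 kb in *primpol* and 17.6 kb in wild type on chromosome 13, and 15.9 kb in *primpol* and 17.1 kb in wild type on chromosome 15. The median gap was thus shorter in *primpol* on 5 of 5 chromosomes, although chromosome 15 carried fewer *primpol* peaks.

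Over the 5 chromosomes the median gap was 14.6 kb (13.2 to 15.5) in *primpol* and 17.6 kb (16.1 to 19.0) in wild type. Gaps also varied more in *primpol*, with a coefficient of variation of 1.70 in *primpol* and 1.46 in wild type. At the short end, 702 gaps (28.3%) were below 5 kb in *primpol* and 594 (25.8%) in wild type. At the long end, 196 gaps in *primpol* and 199 in wild type were over 100 kb, and these held 41.3% of the span in *primpol* and 38.9% in wild type. No gap was below 749 bp in *primpol* or 733 bp in wild type. The order of the pooled medians turned among the 20000 top peaks, to 46.0 kb in *primpol* and 41.2 kb in wild type. At the wild type input depth the *primpol* median was 27.05 kb, which the removal of *primpol* peaks alone could only lengthen.

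**Figure D2:**
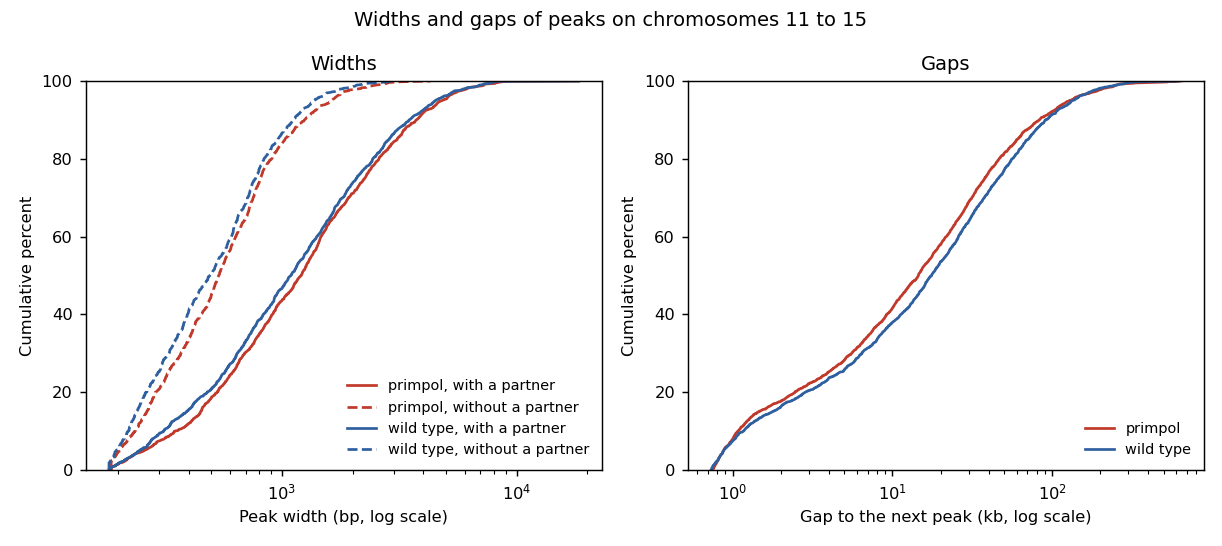
Cumulative percent of peaks by width (left, log scale, bp) and of gaps by length (right, log scale, kb) on chromosomes 11 to 15, with *primpol* in red and wild type in blue. Solid width curves are peaks with a partner and dashed curves peaks without one, and the medians with and without a partner are 1206.5 and 537.5 bp in *primpol* and 1092 and 493 bp in wild type. The gap curve of *primpol* lies left of that of wild type over most of its length and the curves meet near 100 kb.

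Runs of close peaks were next counted, a run being a group of peaks with gaps of up to 5 kb between neighbours. Runs of 4 or more peaks numbered 42 in *primpol*, with 195 peaks, and 26 in wild type, with 112 peaks, and they were more numerous in *primpol* on each of the 5 chromosomes. The largest count fell in the same place in both lists, chr12:4510964-4536445 with 7 peaks in *primpol* and chr12:4510850-4536411 with 6 peaks in wild type. A second run of 7 peaks was found in *primpol* on chromosome 15 (chr15:1289244-1307662), whereas the largest run of wild type on that chromosome lay nearby (chr15:1263628-1276686) and had 6 peaks.

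In windows of 100 kb, 23 of 870 held 10 or more peaks in *primpol* and 9 in wild type. At the same time more windows were empty in *primpol*, 177 in *primpol* and 159 in wild type, of which 106 were empty in both. The densest window of both lists on chromosome 12 was chr12:4500001-4600000, with 14 peaks in *primpol* and 13 in wild type, and that on chromosome 13 was chr13:7500001-7600000, with 14 in *primpol* and 11 in wild type. On chromosomes 11, 14 and 15 the densest windows of the lists were different ones. The densest *primpol* window on chromosome 11 (chr11:13200001-13300000) held 14 peaks in *primpol* and 6 in wild type, and the densest wild type window (chr11:7700001-7800000) held 8 in *primpol* and 10 in wild type. On chromosome 14 the densest wild type window (chr14:900001-1000000) held 7 peaks in *primpol* and 12 in wild type.

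Peaks were thus placed less evenly in *primpol*, and this was followed in 84 windows of 1 Mb. The spread of window counts beyond counting error (the standard deviation that counting alone would not give, as a percent of the mean) was 55.4% in *primpol* and 39.6% in wild type. It was 46.6% in *primpol* and 32.04% in wild type on chromosome 11, 67.4% in *primpol* and 42.1% in wild type on chromosome 13, 61.3% in *primpol* and 28.1% in wild type on chromosome 14, and 38.7% in *primpol* and 24.3% in wild type on chromosome 15. Chromosome 12 was the exception, with 55.4% in *primpol* and 56.5% in wild type. The spread was also higher in *primpol* on chromosomes 6 to 10 (41.7% in *primpol* and 34.0% in wild type), on 5 of 5 chromosomes there. This measure was chosen after the windows had been seen. In windows of 100 kb the spread on chromosomes 11 to 15 was 73.3% in *primpol* and 59.7% in wild type. The order turned there for peaks of −log10 q 2 or more, to 56.8% in *primpol* and 90.2% in wild type. On chromosomes 6 to 10 the 100 kb spread of all peaks was 54.9% in *primpol* and 52.7% in wild type, and higher in *primpol* on 3 of 5 chromosomes.

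More peaks were found in *primpol* in 39 of the windows of 1 Mb and in wild type in 40, with equal numbers in 5. When the windows were ordered by the summed peaks of both lists and split into 3 groups of 28, the sparse windows held 354 peaks in *primpol* and 430 in wild type (ratio 0.823, interval 0.715 to 0.948). The middle windows held 737 in *primpol* and 735 in wild type (ratio 1.003). The dense windows held 1349 in *primpol* and 1095 in wild type (ratio 1.23, interval 1.14 to 1.33), with more peaks in *primpol* in 23 of 28. The sum used for the order contains both counts, so a list that is more uneven weighs more in it. Chromosome 12 did not follow this order, with 110 peaks in *primpol* and 94 in wild type in its sparse windows (ratio 1.17), 155 in *primpol* and 153 in wild type in its middle ones, and 311 in *primpol* and 276 in wild type in its dense ones (ratio 1.13).

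The largest surplus was at chr13:7000001-8000000, with 69 peaks in *primpol* and 43 in wild type. Chromosome 15 had its largest at chr15:3000001-4000000, with 53 in *primpol* and 28 in wild type, and chromosome 14 at chr14:11000001-12000000, with 59 in *primpol* and 35 in wild type. On chromosome 11 the window chr11:13000001-14000000 held 66 in *primpol* and 47 in wild type. The largest deficit was at chr14:6000001-7000000, with 9 peaks in *primpol* and 21 in wild type. Without its window of the largest difference, the ratio was 0.988 on chromosome 13 and 0.952 on chromosome 14. Each window was picked for its difference, which exceeded the surplus of the whole chromosome, so a ratio below 1 had to follow. On chromosome 13, 5 windows held more peaks in *primpol* and 11 held more in wild type, and on chromosome 14 these numbered 6 and 9.

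**Figure D3:**
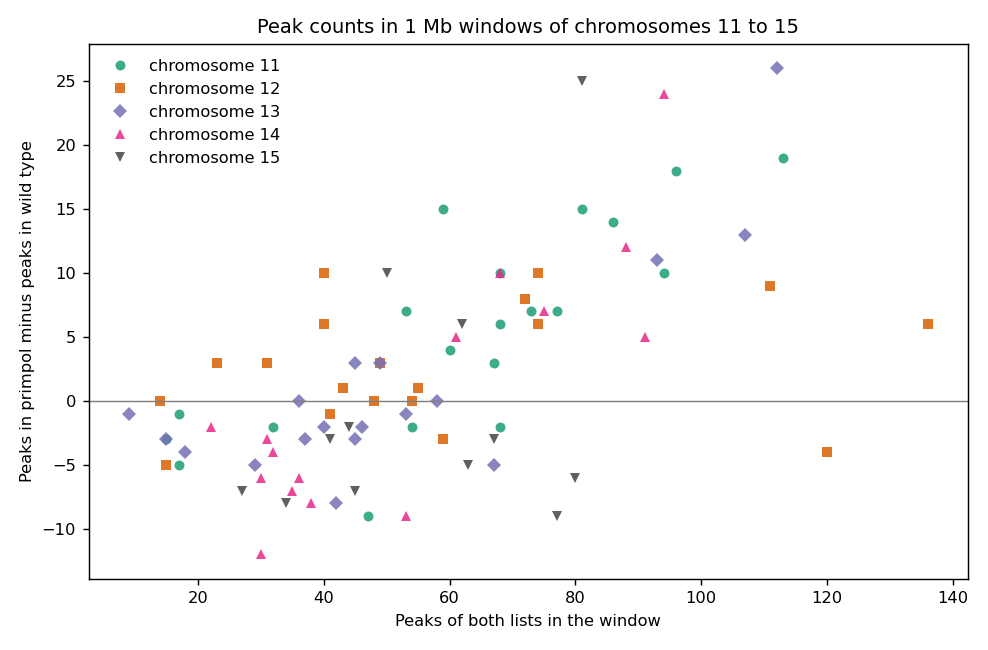
Each point is a window of 1 Mb on chromosomes 11 to 15, marked by chromosome. The vertical axis is the number of peaks in *primpol* minus that in wild type and the horizontal axis the number in both lists together. Differences run between −12 and 26 peaks, the sparse windows lie mostly below 0, and 23 of the 28 densest lie above it.

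Apart from peaks that overlap several of the other list, a difference in counts has to fall on peaks without a partner. In dense windows 591 *primpol* peaks and 319 wild type peaks had none, whereas in sparse windows these numbered 147 in *primpol* and 222 in wild type. Ratios of matched peaks were taken as the median in each window and then as the median over the windows of a group. Each window thus counted the same, whatever its number of pairs. By this measure the local input background of matched peaks in *primpol* was 1.53 times that in wild type in dense windows. It was 1.43 times in middle ones and 1.44 times in sparse ones. By the same measure matched peaks were 1.31 times as high in *primpol* in dense windows, 1.23 times in middle ones and 1.19 times in sparse ones. The height ratio thus followed the ratio of peak numbers over the 3 groups, and the background ratio was raised in dense windows only. Over 81 windows with at least 3 matched pairs, the log2 ratio of peak counts had a Spearman correlation of 0.48 with the ratio of heights and of 0.33 with the ratio of input background. The ratios of heights and of input background were themselves correlated (Spearman 0.70), and these windows share their libraries. At the wild type input depth the spread in windows of 1 Mb was 56.6% in *primpol* and 39.6% in wild type, and the part of the local background in it was not tested.

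Along the chromosomes, the first 20% of the span held 14.5% of *primpol* peaks and 15.6% of wild type peaks, and the last 20% held 12.02% of *primpol* and 13.5% of wild type peaks. At a single chromosome end, a share above 20% was found only at the start of chromosome 14, where the first 20% held 21.4% of *primpol* and 20.8% of wild type peaks, and, in *primpol* alone, at the start of chromosome 15, with 22.9% of *primpol* and 18.8% of wild type peaks. On chromosome 13 the first 20% of the span held 7.28% of *primpol* peaks and 10.99% of wild type peaks, and the next 20% held 37.7% of *primpol* and 30.9% of wild type peaks. On chromosome 12 the stretch from 20 to 40% of the span held 31.01% in *primpol* and 30.9% in wild type. The density maximum of chromosome 12 lay just beyond this stretch, in the bin of 5% of the span centred at 42.5%. It was 72.5 peaks per Mb in *primpol* and 65.4 in wild type. On chromosome 14 the stretch from 60 to 80% held 32.7% of *primpol* and 23.8% of wild type peaks, and the last 20% held 7.56% in *primpol* and 10.8% in wild type.

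Chromosome 15 was the most even of the 5 in wild type, where each 20% of its span held between 18.2 and 22.4% of peaks. In *primpol* the same stretches held between 14 and 27.1%. The middle 20% of chromosome 15 held 49 peaks in *primpol* and 73 in wild type. A bin of 5% of the span within it held 1 peak in *primpol* and 9 in wild type.

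**Figure D4:**
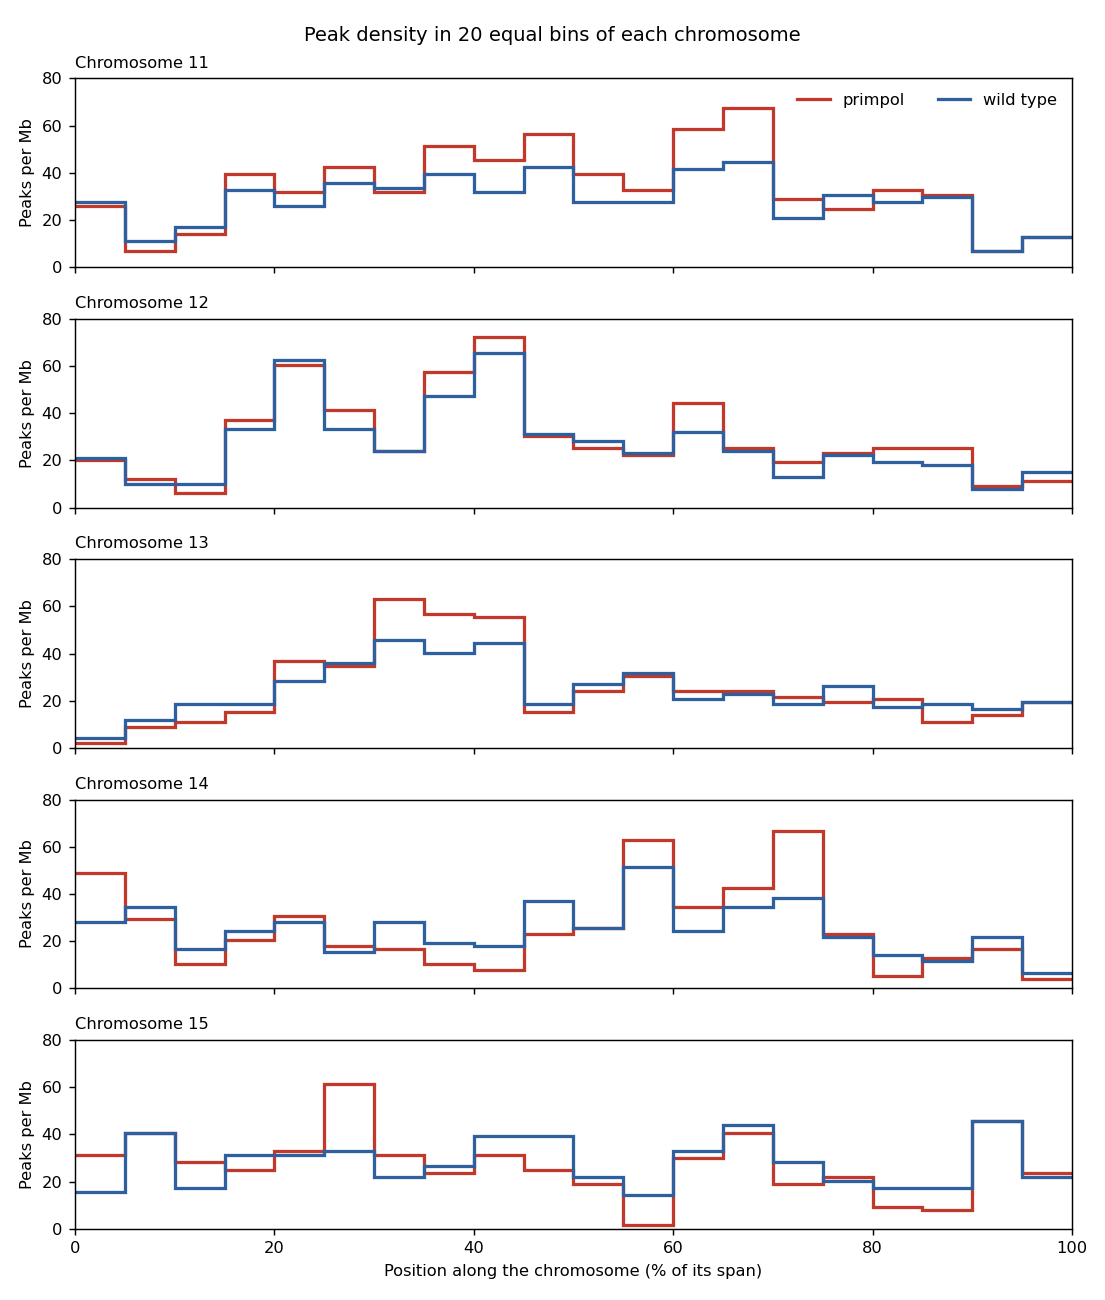
Peak density (peaks per Mb) in 20 equal bins along each of chromosomes 11 to 15, with *primpol* in red and wild type in blue, against the position as percent of the chromosome's span. The *primpol* line lies above that of wild type at most maxima, for example 67.3 against 44.5 peaks per Mb in the highest bin of chromosome 11, and at or below it in many minima, such as 1.57 against 14.1 in the lowest bin of chromosome 15.

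Stretches free of peaks were compared next. The longest gap on chromosome 11 was in the same place in both lists, chr11:2706655-3323174 in *primpol* (616.5 kb) and chr11:2708022-3323353 in wild type (615.3 kb). Near the end of chromosome 14 the longest gaps were alike in length, at 590.9 kb in *primpol* and 588.04 kb in wild type. They overlapped over most of their length, but their ends were shifted (chr14:14962081-15553002 in *primpol* and chr14:14993422-15581463 in wild type). On chromosome 12 the longest gap was 593.5 kb in *primpol* (chr12:18807325-19400779) and 532.3 kb in wild type, and on chromosome 13 it was 505.6 kb in *primpol* (chr13:16081098-16586686) and 299.2 kb in wild type. Stretches of over 100 kb without a peak in either list numbered 147, with 23.6 Mb or 27.2% of the span, and they were most extensive on chromosome 13 (34.7%) and least on chromosome 15 (20.6%).

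The longest gap in *primpol* was on chromosome 15, chr15:7055293-7695401, at 640.1 kb, where the longest in wild type was 307.3 kb. This *primpol* gap contained 6 wild type peaks. Their widths lay between 183 and 1004 bp, and only the widest exceeded the median of 774 bp for wild type peaks of that chromosome. Their heights lay between 10.7 and 17.6, around the median of 14.1 for wild type peaks of that chromosome. The highest wild type peak of chromosome 15, chr15:7036414-7036653 with a height of 22.04 and a fold enrichment of 3.31, lay just before this gap and had no partner in *primpol*. The *primpol* peak nearest to it was 18.4 kb away. Whether this stretch is present and mappable in the DNA of the *primpol* line was not tested.

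The following comparison asked which regions were called in both genotypes, a partner being a peak of the other list that overlaps by at least 1 bp. On chromosome 11 a partner was found for 56.6% of *primpol* peaks and 68.1% of wild type peaks, and on chromosome 12 for 57.1% in *primpol* and 64.9% in wild type. On chromosome 13 it was 61.2% in *primpol* and 60.8% in wild type, on chromosome 14 56.9% in *primpol* and 58.7% in wild type, and on chromosome 15 60.6% in *primpol* and 59.4% in wild type. Over the 5 chromosomes 1448 *primpol* peaks had a partner (58.2%, 56.3 to 60.1%), against a background of 57.8% of the whole *primpol* list. In wild type 1451 peaks had one (63.0%, 61.0 to 64.9%), against 69.7% of the whole wild type list.

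The share was thus close to the background in *primpol* and below it in wild type. Only chromosome 11 had an interval in wild type (64.1 to 71.7%) that reached the background. On chromosomes 6 to 10 the shares were 56.0% in *primpol* and 64.6% in wild type, and on chromosomes 16 to 33 the order was the opposite, with 65.8% in *primpol* and 51.9% in wild type. At the wild type input depth 70.04% of *primpol* peaks and 45.4% of wild type peaks had a partner, but that scaling removes *primpol* peaks only, so the wild type share could only fall.

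Peaks without a partner numbered 1040 in *primpol* and 853 in wild type. Their numbers differed between genotypes mainly on chromosome 11, with 298 in *primpol* and 183 in wild type, and on chromosome 12, with 252 in *primpol* and 189 in wild type. On chromosome 13 there were 181 in *primpol* and 175 in wild type, on chromosome 14 171 in *primpol* and 161 in wild type, and on chromosome 15 138 in *primpol* and 145 in wild type. The ratio was 1.63 on chromosome 11 and 0.952 on chromosome 15. Since an overlap pairs peaks of both lists, the numbers with a partner can differ only where a peak overlaps several. They were 389 in *primpol* and 390 in wild type on chromosome 11 and 335 in *primpol* and 349 in wild type on chromosome 12. On chromosome 14 they were 226 in *primpol* and 229 in wild type, and on chromosome 15 they were 212 in both. On chromosome 13 they were 286 in *primpol* and 271 in wild type, so most of its surplus had a partner.

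**Figure D5:**
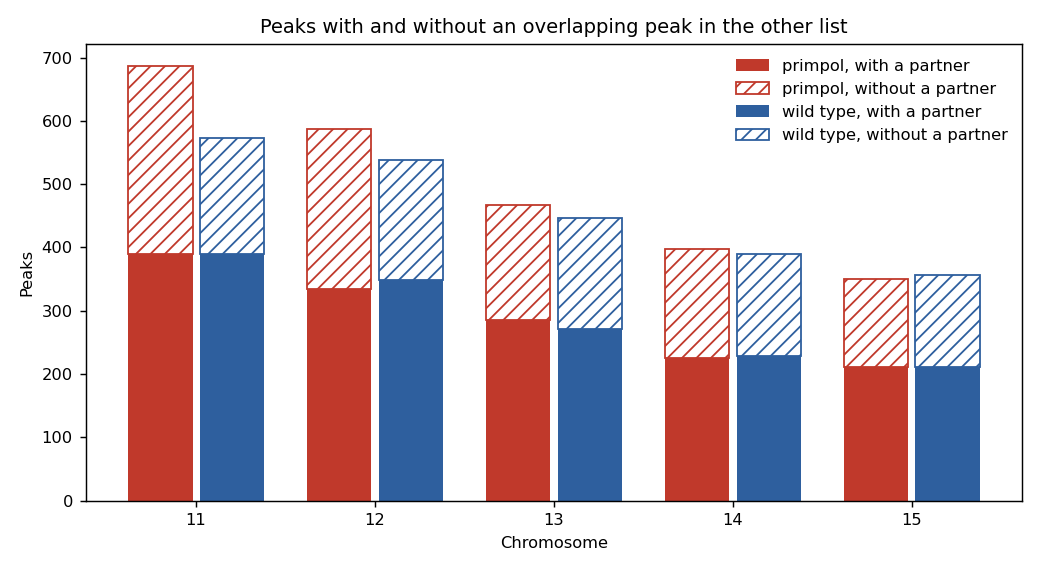
Number of peaks with a partner (filled) and without one (hatched) on chromosomes 11 to 15, with *primpol* in red to the left of wild type in blue. The hatched bars differ most on chromosome 11 (298 in *primpol* and 183 in wild type). The filled bars differ less than the hatched ones on each chromosome except 13 (286 in *primpol* and 271 in wild type).

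Width separated peaks with a partner from those without. Of peaks under 500 bp, 36.5% had a partner in *primpol* and 41.2% in wild type, while of peaks of at least 2 kb 94.6% had one in *primpol* and 96.7% in wild type. Over the whole lists the narrow peaks had a partner in 33.8% of cases in *primpol* and 48.6% in wild type. Wild type peaks from 500 bp to below 1 kb had a partner in 55.0% of cases on the 5 chromosomes and in 62.6% over the whole list, and those from 1 to below 2 kb in 79.4% on the 5 chromosomes and 84.4% over the whole list. The share in wild type was thus below that of its whole list in each of these classes. Peaks of at least 2 kb had a partner in 98.1% of cases over the whole wild type list, close to the possible maximum. Wider peaks also have more sequence in which to overlap.

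Peaks without a partner were mostly not just beside one. The median distance to the nearest peak of the other list was 8.02 kb (6.84 to 9.24) in *primpol* and 8.16 kb (6.75 to 9.65) in wild type, and 166 in *primpol* and 133 in wild type lay within 1 kb. Over all sequences these medians were 6.07 kb in *primpol* and 4.63 kb in wild type. The distance was longest on chromosome 14, with 9.85 kb in *primpol* and 13.3 kb in wild type. There 28 of the 161 unmatched wild type peaks were over 50 kb from any *primpol* peak.

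Matched peaks were then compared directly. Each peak overlapped the other alone in 1166 pairs, with 310 on chromosome 11, 265 on chromosome 12, 222 on chromosome 13, 193 on chromosome 14 and 176 on chromosome 15. A further 97 *primpol* peaks overlapped several wild type peaks and 95 wild type peaks overlapped several *primpol* peaks. The balance differed by chromosome, with 32 such *primpol* peaks and 20 such wild type peaks on chromosome 12 but 12 in *primpol* and 26 in wild type on chromosome 13. The peak of the pair was wider in *primpol* in 636 pairs (54.5%, 51.7 to 57.4%), against a background of 60.0% over all pairs. The share was 56.8% on chromosome 11, 58.1% on chromosome 12, 53.9% on chromosome 14 and 51.7% on chromosome 15. On chromosome 13 it was 111 of 222 pairs.

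The median width ratio of *primpol* over wild type was 1.03 (1.01 to 1.06), compared with 1.07 over all sequences. It was 1.06 on chromosome 12 and 1.00 on chromosome 13. In 311 pairs both ends lay further out in *primpol* and in 238 pairs both lay further in. Outward pairs were in excess on chromosomes 11 (84 out and 49 in) and 12 (79 out and 41 in), but not on chromosomes 14 (53 out and 54 in) or 15 (39 out and 44 in).

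Heights gave no direction that held on all scales. The deposited height was larger in *primpol* in 1120 of the 1166 pairs (96.1%), against 97.4% of all pairs, and the median ratio was 1.27 (1.26 to 1.28). It was 1.30 on chromosome 11, 1.29 on chromosome 12, 1.27 on chromosome 13, 1.24 on chromosome 14 and 1.25 on chromosome 15. The local input background of the same pairs was 1.49 times as high in *primpol*. Fold enrichment over input gave a ratio of 0.895 (0.889 to 0.900), and heights divided by input tags gave 0.970. Compared with the ratio of 1.31 over all sequences, heights on the 5 chromosomes were thus somewhat less raised in *primpol* on the deposited scale.

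Most peaks were near the calling threshold, and the highest stood out by little. A −log10 q of 5 or more was reached by 7 of 2488 peaks in *primpol* and 4 of 2304 in wild type. Over the whole lists it was reached by 535 of 48468 *primpol* peaks and 340 of 41445 wild type peaks. The exception among the highest peaks was a region of chromosome 12, chr12:13850387-13851576 in *primpol* and chr12:13850417-13851608 in wild type. Its height was 44.6 in *primpol* and 32.4 in wild type, it ranked 22 in the whole *primpol* list and 21 in that of wild type, and its fold enrichment was 6.56 in *primpol* and 5.14 in wild type. It was thus higher in *primpol* also relative to input, unlike the median pair.

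On the other chromosomes the highest peaks had heights between 25.5 and 26.9 in *primpol* and between 21.6 and 22.5 in wild type, and the lists did not name the same region. The highest *primpol* peak of chromosome 11 was chr11:20131055-20133255, with a height of 26.5 in *primpol* and 18.1 in wild type. The highest wild type peak of chromosome 11, chr11:2404646-2405975, had a height of 22.9 in *primpol* and 22.1 in wild type. On chromosome 14 the highest *primpol* peak (chr14:5205364-5205901) had a height of 26.9 in *primpol* and 20.6 in wild type. The highest wild type peak there (chr14:3473752-3474734) had a height of 26.02 in *primpol* and 22.5 in wild type. On chromosome 13 the highest *primpol* peak was chr13:8120721-8121548 (26.6 in *primpol* and 18.4 in wild type) and the highest wild type peak chr13:3880987-3881432 (24.5 in *primpol* and 21.6 in wild type). The highest *primpol* peak of chromosome 15, chr15:6606447-6606922, had a height of 25.5 in *primpol* and 18.2 in wild type.

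To compare peaks apart from the scale of heights, each height was turned into a percentile of its own list. Among 794 pairs with a member above the median, the largest move up in *primpol* was chr12:7711138-7712405, at percentile 82.3 in *primpol* and 14.9 in wild type. Next was chr13:7610404-7611489, at 77.0 in *primpol* and 12.3 in wild type, which lay within the window of the largest surplus of *primpol* peaks. The largest move down was chr13:10389287-10389631, at percentile 15.3 in *primpol* and 95.7 in wild type, followed by chr12:18625803-18626492, at 11.4 in *primpol* and 82.8 in wild type. By fold enrichment the first of these moved the other way, up by 77.8 percentile points in *primpol*, and the other move down was only −5.58 points. The largest move up was 12.2 points by fold enrichment and the next one 47.6 points, so that the moves in height were smaller or opposite against input. The median change of percentile over pairs was 4.81 points on chromosome 11, 2.41 on chromosome 12 and 0.567 on chromosome 13. It was −3.52 points on chromosome 14 and −2.06 on chromosome 15, compared with 3.41 over all pairs of the lists. Chromosome 11 was thus near that background, and chromosomes 14 and 15 were below it.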

How the data were processed

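DRIP-seq libraries of *primpol* and wild type DT40 cells were trimmed by the authors with Trim Galore 0.4.4 and aligned with bowtie2 2.2.6 to Galgal5 and the *Drosophila* genome, with uniquely matching reads kept. Peaks were called with MACS2 2.1.1.20160309, in its broad mode and against the input of the same genotype. Per the file headers, q-value cutoffs were 0.05 and 0.1, the fragment length was 187 bp in *primpol* and 183 bp in wild type, and 15.0% (*primpol*) and 14.4% (wild type) of DRIP tags were removed as duplicates. How the replicates were merged is not given in the sources used here. The deposited signal (height) is the mean pileup, scaled to the input. The deposited fold enrichment relates height to local background as a ratio, each with 1 added, and the background was computed from it. The deposited −log10 q-values, and the −log10 p-values used as a score, are means over the peak, and positions and widths were used as deposited.

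Peaks of chromosomes 11 to 15 were selected by chromosome name, and the members, measures and named peaks were chosen with earlier results of these data known. Named peaks were the highest and widest of each list on each chromosome, the longest gaps, the densest windows and the pairs with the largest percentile changes. Overlap required 1 bp. Shares were given 95% Wilson intervals, medians order-statistic intervals, and ratios of counts intervals on the log scale. Peaks were counted in windows by their midpoints. For scaling to the wild type input depth, *primpol* heights and background were multiplied by 0.763, −log10 p-values were shifted under a Poisson model and peaks below 2.65, the lowest value of wild type, were left out. Other alternatives covered q-value, list length, merging within 1 kb, overlap and each chromosome left out. Functions were tested on simulated data. Python 3.11.15, numpy 2.4.6, pandas 2.3.3, scipy 1.17.1 and matplotlib 3.10.9 were used. No genome or annotation of Galgal5 was used, so peaks are given by position without genes or sequence. RNase H-treated libraries and spike-in reads were not used here.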

Additional observations from a re-analysis of the deposited data

How the results depend on the processing

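No paired analysis was possible because both replicates of a genotype belong to a single list, and no replicate could be left out. At −log10 q of 2 or more the ratio of peak numbers was 1.16, that of list shares 0.814, the height ratio 1.25 and the ratio of the spread in 100 kb windows 0.63. *primpol* then had 5.05 peaks per Mb, a median width of 1414 bp, a median gap of 108.1 kb and a partner for 39.7%, and wild type had 4.34 per Mb, 1238 bp, 122.9 kb and 45.4%. At 5 or more the ratio of numbers was 1.75, on 7 *primpol* and 4 wild type peaks. For the 20000 top peaks the share ratio was 0.858 and the 100 kb spread ratio 0.998, with a width of 1252 bp and a gap of 46.0 kb in *primpol* and of 1064 bp and 41.2 kb in wild type. With peaks merged within 1 kb, *primpol* had 26.4 peaks per Mb, a width of 834 bp and a gap of 17.0 kb, and wild type 24.6 per Mb, 812 bp and 20.4 kb.

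Scaled to the wild type input depth, the number ratio was 0.621 (0.723 over the whole lists) and the share ratio 0.86. *primpol* then had 16.5 peaks per Mb, a width of 1016 bp, a gap of 27.05 kb and a partner for 70.04%, against 45.4% in wild type. As only *primpol* peaks are removed by this scaling, it can only lower the number ratio and the wild type share and lengthen *primpol* gaps. Gaps between midpoints had a median of 15.8 kb in *primpol*. With overlap of 50% of both peaks, 28.7% in *primpol* and 30.9% in wild type had a partner, and within 1 kb 64.9% in *primpol* and 68.8% in wild type. The height ratio was 0.895 by fold enrichment, 0.970 per input tag and 1.26 without chromosome 11, where *primpol* density was 27.06.

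By chromosome the number ratio turned at the wild type input depth on chromosomes 11 (0.658), 12 (0.669), 13 (0.603) and 14 (0.562). It turned at −log10 q of 2 or more on chromosomes 13 (0.985), 14 (0.863) and 15 (1.10). Without the window of the largest difference it fell below 1 on chromosomes 13 (0.988) and 14 (0.952), as the surplus of that window made certain. For the 20000 top peaks it was below 1 on chromosomes 12 (0.905), 13 (0.744) and 14 (0.816). Lists of equal length make this a ratio of list shares, which was already below 1 there in the full lists (0.933, 0.895 and 0.870). The cause of these changes was not tested. The spread in 1 Mb windows, an alternative chosen after seeing the data as were those by chromosome, stayed higher in *primpol* under the 4 other peak settings (ratios of 1.16 to 1.43) and without any 1 chromosome (1.29 to 1.67). With the pooled spread included, 79 values of the main results stayed within their interval, 36 moved outside it and 5 reversed direction. For the spread that interval was the range over single chromosomes (0.982 to 2.19 in 1 Mb windows). The values that stayed include wild type ones that the depth scaling cannot change. Only ratios could be counted as reversed. Turned orders of the genotypes in density, gaps or partner shares were counted as moved or as within their interval. Chromosome lengths were taken to the last peak, so the alternative of that length was the main setting itself.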
